A study of Mus musculus with 4 samples.

Results

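The 300 genes described here are the Zfp genes that Neuro2A cells expressed, out of 49548 genes in the deposited table. They are protein-coding genes whose symbol is Zfp followed by a number, selected on a normalised count that averaged at least 10 over the 4 libraries. The table holds 394 protein-coding genes of that name, so 94 fell below the minimum, and 35 of those had a count of 0 in every library. Selection on the level favours genes that were high in at least 1 group: 10 of the 300 had a mean under 10 in the GFP cells and 3 in the Prox1 cells.

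Neuro2A is a mouse neuroblastoma line, and the study compared 2 stable derivatives of it, named Prox1-Tet-On and GFP-Tet-On, with 2 libraries each. In a Tet-On line doxycycline turns on the transgene: Prox1, a homeodomain transcription factor, in one line and green fluorescent protein in the other. Both lines were kept under G418 and hygromycin selection and were given doxycycline at 1 μg/mL, and total RNA was made into 3′ messenger RNA libraries, in which each transcript gives a read near its 3′ end. The labels do not say whether a line is 1 clone or whether replicates are separate cultures, so a difference between the lines and an effect of Prox1 cannot be told apart, and p-values measure only the spread between these libraries.

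Most Zfp proteins carry C2H2 zinc fingers, short modules that fold around a zinc ion and are strung together to read DNA. Many also carry a KRAB domain, which binds the corepressor TRIM28; TRIM28 brings the histone methyltransferase SETDB1 and HP1 proteins to the bound site, and much of this silencing falls on retroelements. KRAB zinc finger genes arose by repeated duplication and lie in clusters of related copies. The name Zfp is a catalogue name, however, and also covers RNA-binding proteins, developmental regulators and proteins with no C2H2 finger.

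The counts of the Prox1 gene differed widely between the lines, and they do not separate the transgene from the cells' own Prox1 gene. Prox1 had normalised counts of 1304 and 2505 with Prox1 and 2 and 3 with GFP, a log2 difference of 9.03 (adjusted p = 2.94e-08, limma). Library totals ran from 6798014 to 7683100 normalised counts. All 11 sympathetic neuroblastoma markers exceeded the minimum, but their summed count was 6309 and 6950 in the Prox1 libraries against 12157 to 12684 with GFP. Chgb alone had 1390 and 1415 against 4795 and 4498, while Gata2 rose (956 and 778 against 497 and 509; adjusted p = 0.0256) and Phox2a did not pass (adjusted p = 0.946). The summed counts of 4 fibroblast markers (0 to 2) and 3 endothelial markers (2 to 4 in Prox1 cells and 16 in both GFP libraries) stayed near 0, and Gfap and Sox10 were at 0 in every library. In such bulk RNA, fewer cells of a kind and less RNA per cell cannot be told apart.

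The promoters of a run of Zfp genes on chromosome 13 show what related copies share, and they are printed here because most of its genes belong to the 2 clusters with the highest median difference between the groups, as described further on. RefSeq promoter entries (GRCm38.p6, 250 bases before to 50 bases from the gene start) were found for 19 of the 23 expressed Zfp genes between 60 and 68 Mb. Capitals mark the motif ACTACANNT, here read on the opposite strand as ANNTGTAGT. Each line below is a 50-base stretch, 5′ to 3′ on the gene's own strand.
Zfp759, chr13:67128159-67128208, plus strand: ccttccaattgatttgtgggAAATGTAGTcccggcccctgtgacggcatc
Zfp712, chr13:67061194-67061243, minus strand: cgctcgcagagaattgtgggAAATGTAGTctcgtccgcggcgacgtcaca
Zfp273, chr13:67813732-67813781, plus strand: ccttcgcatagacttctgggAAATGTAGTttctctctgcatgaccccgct
Zfp953, chr13:67360615-67360664, minus strand: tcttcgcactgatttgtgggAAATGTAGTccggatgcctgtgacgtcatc
Zfp874a, chr13:67451625-67451674, minus strand: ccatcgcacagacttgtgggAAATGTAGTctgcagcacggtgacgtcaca
Zfp874b, chr13:67484256-67484305, minus strand: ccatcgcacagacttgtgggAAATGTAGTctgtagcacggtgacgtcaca
Zfp595, chr13:67332579-67332628, minus strand: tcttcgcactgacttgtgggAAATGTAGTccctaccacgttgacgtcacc
Zfp729a, chr13:67637783-67637832, minus strand: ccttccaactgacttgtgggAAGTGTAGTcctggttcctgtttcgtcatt
Zfp738, chr13:67683536-67683585, minus strand: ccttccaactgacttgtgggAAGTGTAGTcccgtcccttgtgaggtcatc
Zfp65, chr13:67729159-67729208, minus strand: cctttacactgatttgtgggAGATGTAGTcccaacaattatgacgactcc

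In the whole Zfp759 promoter the motif starts 49 bases before the gene start; this promoter is shown because Zfp759 was the 1 gene of the run past the threshold.
Zfp759, chr13:67127978-67128277, plus strand: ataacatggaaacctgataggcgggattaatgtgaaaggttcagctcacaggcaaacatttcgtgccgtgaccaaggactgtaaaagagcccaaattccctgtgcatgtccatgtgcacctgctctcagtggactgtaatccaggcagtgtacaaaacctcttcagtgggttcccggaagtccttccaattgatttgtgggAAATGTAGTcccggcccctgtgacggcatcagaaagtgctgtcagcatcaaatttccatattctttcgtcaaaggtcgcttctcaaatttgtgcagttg

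The motif was present in 15 of these 19 genes, or 78.9%. It was present in 35 of 229 Zfp genes elsewhere (15.3%), in 529 of 8153 other tested protein-coding genes (6.49%) and in 4.78% of all 27025 genes of the promoter table, counting both strands and any promoter entry of a gene. In all 15 it lay on the strand opposite to the gene, with its first letter 13 to 175 bases before the gene start and a median of 48 bases before it. ACTACANNT is contained in the known binding site of Zfp143, an activator of small nuclear RNA genes and of many messenger RNA genes. It was taken from 22 spellings looked at after the promoters had been seen, and no test is given.

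**Figure D1:**
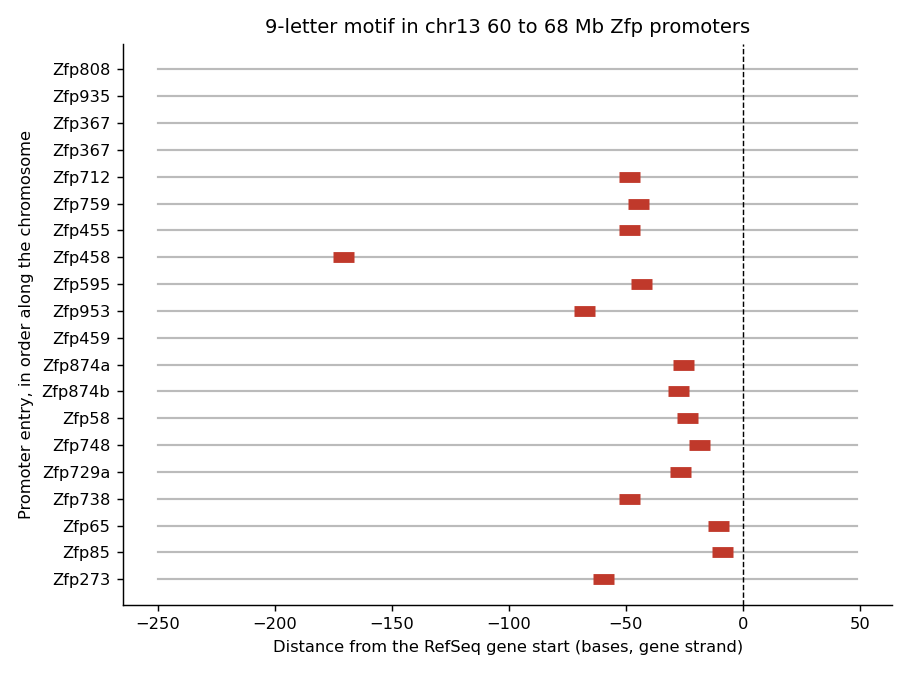
Position of the motif ACTACANNT (red, drawn to length) in each RefSeq promoter entry of the chromosome 13 Zfp genes; the x axis is the distance in bases from the gene start (dashed line) and Zfp367 has 2 entries. In 15 of 19 genes the motif is present, and only that of Zfp458 lies more than 100 bases from the start.

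Some pairs of promoters were alike along their length. Over the 171 pairs of the 19 genes the median identity in a global alignment was 52.0%, with no unrelated promoters aligned beside it, and the highest values were 77.1% for Zfp729a with Zfp738, 75.3% for Zfp874a with Zfp874b and 71.8% for Zfp808 with Zfp935. The 4 genes without the motif were Zfp808, Zfp935, Zfp367 and Zfp459. The promoters held a median of 8 CpG pairs, against 17 in Zfp genes elsewhere, 12 in those elsewhere with a KRAB pattern, 21 in other tested genes and 7 over the whole promoter table.

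The median of genes with the motif was lower than that of genes without it in some groups and higher in others. None of these differences was tested. In the chromosome 13 run the median log2 difference, Prox1 minus GFP, was 0.61 for the 15 genes that held it and 1.45 for the 4 that did not. Among Zfp genes elsewhere the medians were 0.0031 with the motif (35 genes, 0 higher and 3 lower) and 0.033 without it (194 genes, 13 higher and 6 lower). Among Zfp genes elsewhere with a KRAB pattern the median was 0.094 with the motif (23 genes) and 0.035 without it (103 genes). Other tested protein-coding genes had a median of 0.031 with the motif and 0.0044 without it. Of the 529 other tested genes with the motif 42 were higher and 38 lower, beside 7.57% and 8.41% of all tested genes. Zfp143 itself had counts of 142 and 79 with Prox1 and 164 and 248 with GFP, a log2 difference of -0.92 that did not pass (adjusted p = 0.0684).

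Of the 300 Zfp genes, 18 rose and 11 fell in the Prox1 cells at an adjusted p under 0.05. This is 6% and 3.67% of them, against a background of 7.57% of all 13290 tested genes that rose and 8.41% that fell. Both shares lay below the background, and the difference from it was not tested. Their median log2 difference was 0.033, against -0.0017 over all tested genes. In all 29 the 2 groups of libraries did not overlap, which choosing genes by p largely fixes in advance. Without overlap 93 of the 300 lay above and 68 below, beside 28.9% and 29.9% of all tested genes. Of the 29, 20 differed by at least 2-fold on the log2(normalised count + 1) scale. A fit that leaves out 1 library has a single library in 1 group, so it says nothing about single calls and only its log2 differences are given here. The largest move of a log2 difference in these fits had a median of 0.22 over the 29 genes and was highest in Zfp759, which was 3.16 without GFP replicate 1 and 1.64 without GFP replicate 2. Zfp956 was 0.90 without GFP replicate 1, and Zfp414 was -0.83 without GFP replicate 2. With no minimum on the level no gene of the table passed. Before adjustment 67 of the 300 were then under 0.05 (limma), beside 5032 of all 24187 genes tested. A fit with no mean-variance trend left 4 Zfp genes that fell, and 16 of the 29 lost their call.

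**Figure D2:**
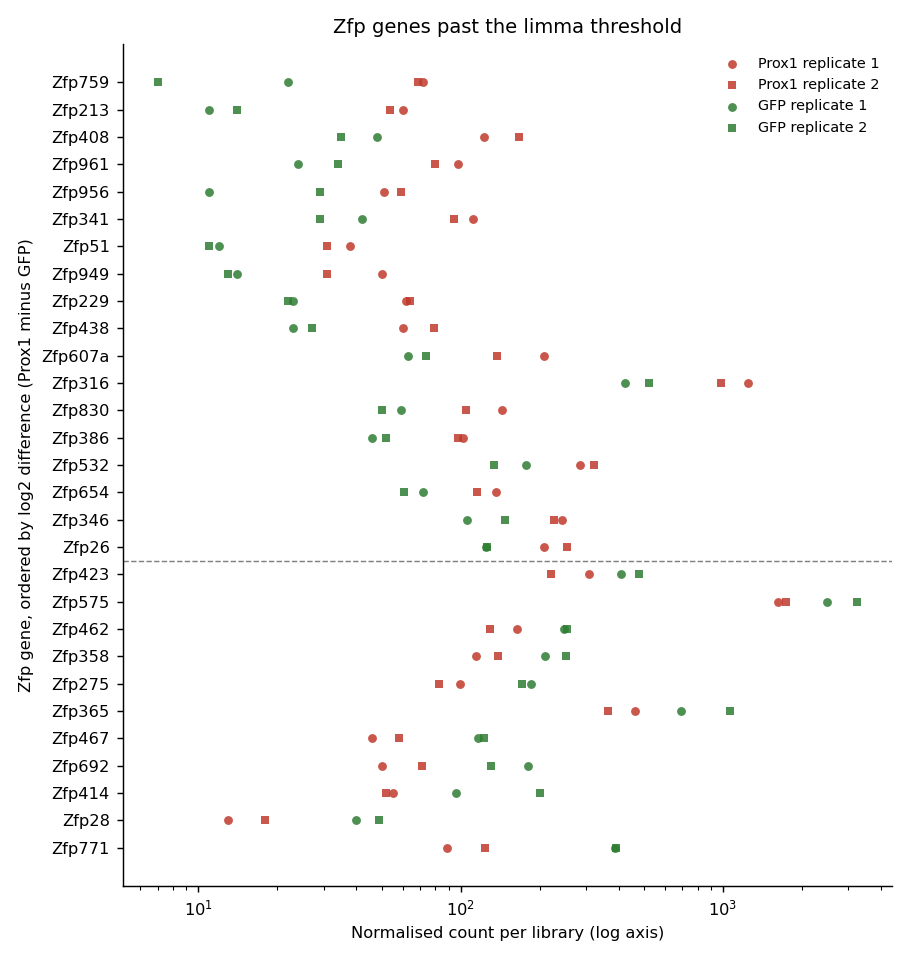
Normalised counts (log axis) of the 29 Zfp genes past the limma threshold in each of the 4 libraries, ordered by log2 difference; genes above the dashed line rose in Prox1 cells and those below it fell. In no gene do red and green symbols overlap in order, and Zfp771 at the foot has 89 and 124 against 387 and 391.

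Among the genes that fell, Zfp771 had the lowest adjusted p of all the Zfp genes. It had counts of 89 and 124 with Prox1 and 387 and 391 with GFP. The GFP mean was 3.65 times the Prox1 mean, and the log2 difference was -1.88 ± 0.25 (SE; adjusted p = 0.000583). Zfp771 (chromosome 7, 127244274 to 127254803) encodes 8 C2H2 fingers and no KRAB pattern was found in it. It lies in a run of 10 expressed Zfp genes with a median log2 difference of -0.19. The 18 other tested coding genes of that span had a median of -0.55, with 0 that rose and 4 that fell, beside 7.57% and 8.41% of all tested genes. The part of this in the fall of Zfp771 was not tested.

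Among the genes that fell, 3 are known from neural development. Zfp365, whose protein binds the neuronal scaffold DISC1, had counts of 462 and 365 with Prox1 and 690 and 1061 with GFP (log2 difference -1.06, adjusted p = 0.0127). Zfp462, a protein of 33 fingers that works with H3K9 methyltransferases in chromatin silencing, had 164 and 129 against 247 and 255 (log2 difference -0.78, adjusted p = 0.0464). Zfp423, a 27-finger regulator of cerebellar and fat cell development, had 308 and 221 against 408 and 479 (log2 difference -0.76, adjusted p = 0.0476). These 3 were the ones called of 10 tested genes in a list of 15 neural development genes, beside 8.41% of all tested genes that fell, and all 3 lost their call without the variance trend (adjusted p = 0.0910, 0.111 and 0.144). The other 7, among them Zfp24, Zfp292, Zfp335 and Zfp503, had log2 differences from -1.19 (Zfp703, adjusted p = 0.0940) to 0.11 (Zfp24). Zfp521 and Zfp804a were at 0 in every library.

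The remaining genes that fell were Zfp28, Zfp414, Zfp692, Zfp467, Zfp275, Zfp358 and Zfp575. Zfp414 had 55 and 52 with Prox1 and 96 and 200 with GFP, so the 2 GFP libraries stood further apart than the Prox1 mean stood from the lower of them. Zfp692 had 50 and 71 against 181 and 130, a log2 difference of -1.35 (adjusted p = 0.0111). Zfp467, a regulator of the choice between fat and bone cells, had 46 and 58 against 116 and 123, a log2 difference of -1.19 (adjusted p = 0.0176). For Zfp414 and Zfp28, 24.5% of the 50-base words in the last 300 bases of the transcripts also occurred in transcripts of another gene, and for Zfp575 it was 70.9%, so reads from other genes could enter these counts.

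Among the genes that rose, Zfp759 and Zfp213 had the largest log2 differences. Zfp759, a KRAB protein with 19 fingers, had counts of 72 and 69 with Prox1 and 22 and 7 with GFP, a mean 4.86 times higher (log2 difference 2.40 ± 0.50 SE, adjusted p = 0.0071). Zfp213, which carries a SCAN domain pattern, had 60 and 54 against 11 and 14 (log2 difference 2.11, adjusted p = 0.0057). Of its 3′ 50-base words 71.7% also occurred in another gene's transcripts, so this value is uncertain.

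Several genes that rose have known roles. Zfp408, whose human counterpart is altered in inherited disease of the retinal vessels, had 123 and 167 with Prox1 and 48 and 35 with GFP (log2 difference 1.78, adjusted p = 0.0032). Zfp341, whose human counterpart drives STAT3 expression, had 111 and 94 against 42 and 29 (log2 difference 1.52, adjusted p = 0.0095). Zfp830, needed for early mouse development, had 144 and 105 against 59 and 50 (log2 difference 1.16, adjusted p = 0.0218). Zfp346, a double-stranded RNA-binding protein, had 244 and 227 against 106 and 148 (log2 difference 0.90, adjusted p = 0.0317). Of these 4, Zfp408 and Zfp341 differed most.

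The genes with a KRAB pattern among those that rose were Zfp759, Zfp961, Zfp51, Zfp949, Zfp229, Zfp607a, Zfp316, Zfp386 and Zfp26. The pattern misses some KRAB boxes, so a gene outside this list may still carry one. Zfp316 had the highest counts of these, 1242 and 981 with Prox1 and 422 and 523 with GFP (log2 difference 1.23, adjusted p = 0.0033). Zfp961 had 98 and 80 against 24 and 34 (log2 difference 1.60, adjusted p = 0.0094). Zfp229 had 62 and 64 against 23 and 22 (log2 difference 1.45, adjusted p = 0.0191), with both replicate pairs close to each other. The others called were Zfp956 (51 and 59 against 11 and 29; log2 difference 1.56, adjusted p = 0.0413), Zfp438 (60 and 79 against 23 and 27; log2 difference 1.43, adjusted p = 0.0198), Zfp532 and Zfp654.

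In the authors' deposited table, which uses DESeq, 4 of the 295 Zfp genes with an adjusted p had one under 0.05, beside 4.62% of all 11933 genes that have one. These 4 were Zfp771 (authors' adjusted p = 0.000693), Zfp408 (0.0151), Zfp759 (0.0160) and Zfp414 (0.0386). The 4 are all among the 29 called by limma.

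Sorted by what their proteins carry, the 167 Zfp genes with a KRAB pattern gave 9 that rose (5.39%) and 1 that fell (0.599%), beside 7.57% and 8.41% of all tested genes, with a median log2 difference of 0.13. Outside chromosome 13 60 to 68 Mb the median of the 145 genes with a KRAB pattern was 0.029. The 133 without one gave 9 that rose (6.77%) and 10 that fell (7.52%), with a median of -0.08. The single gene with a KRAB pattern that fell was Zfp28 (13 and 18 against 40 and 49; log2 difference -1.47, adjusted p = 0.0357). The genes with a KRAB pattern had lower counts, with a median mean of 50.5 against 132.5. Level went with the values too. Zfp genes with a mean of 10 to 50 had a median log2 difference of 0.30 (111 genes, 7 higher and 1 lower). All 3393 tested genes of that level had a median of 0.04. Zfp genes with a mean of 50 to 200 had a median of -0.06 and those above that -0.11. The KRAB pattern and a low level went together, and their parts in the difference were not tested. Fingers were counted from the translated GENCODE transcripts: 291 of the 300 had at least 1, with a median of 10 and a maximum of 36, and the 9 with none included Zfp36 and Zfp36l2, which bind AU-rich messenger RNA through CCCH fingers.

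The 67 tested genes of the other C2H2 families by name (Zbtb, Zscan, Zkscan, Klf and Prdm) gave 5 that rose (7.46%) and 2 that fell (2.99%), beside 7.57% and 8.41% of all tested genes, with a median log2 difference of 0.22. Another 38 genes with a KRAB pattern and at least 3 fingers but other names gave 3 that rose (7.89%) and 0 that fell, with a median of 0.19.

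By chromosome, the 28 Zfp genes of chromosome 13 had the highest median log2 difference, 0.67, with 24 of 28 above 0. The other tested genes of chromosome 13 also stood above 0, with a median of 0.35. Of these 432 genes 95 rose (22.0%) and 17 fell (3.94%), beside 7.57% and 8.41% of all tested genes. Chromosome 16 had a like shift in its other genes, with a median of 0.32 over 381 genes, while chromosome 7 (932 other genes, median -0.24) and chromosome 5 (886 other genes, median -0.17) stood below 0. The 76 Zfp genes of chromosome 7 had a median of -0.10. Of them 1 rose and 3 fell, beside 7.57% and 8.41% of all tested genes. The part of these chromosome-wide shifts in the Zfp values was not tested.

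**Figure D3:**
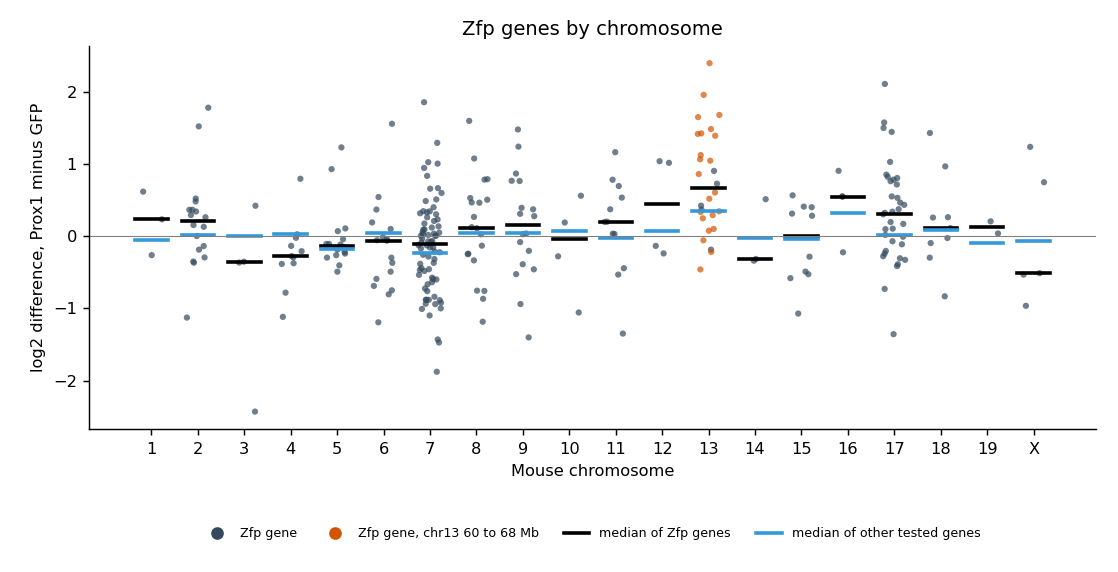
Log2 difference, Prox1 minus GFP, of each of the 300 Zfp genes by chromosome, with the median of the Zfp genes (black bar) and of the other tested genes of the same chromosome (blue bar). On chromosome 13 the medians are 0.67 and 0.35, and on chromosome 7 they are -0.10 and -0.24.

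Between 60 and 68 Mb of chromosome 13 lay 29 protein-coding Zfp genes, 23 of them expressed. Their median log2 difference was 0.86, with 20 of 23 above 0, against 0.01 for the 277 Zfp genes elsewhere. In 14 of the 23 both Prox1 libraries lay above both GFP libraries, and in 1, Zfp729a, both lay below. Over all tested genes 28.9% lay above. On the rest of chromosome 13 it was 193 of 353 protein-coding genes other than Zfp, and the difference from these was not tested. Only Zfp759 passed the threshold, beside 16% of all tested genes and 26.9% of those other coding genes on the rest of the chromosome. Of the 23, 10 had an unadjusted p under 0.05 (limma), beside 4216 of all 13290 tested genes. An adjusted p between 0.05 and 0.1 was found for 6, with no share over all genes beside it. With all 4 libraries the number that passed was 0 with no minimum or a mean of at least 50, 3 with TMM scaling, 4 with a pseudocount of 5 and 5 without the variance trend. This stretch was set apart with earlier results of these data known, so its median is a description.

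At 62 Mb, 3 genes stood together. Zfp808 had counts of 39 and 27 with Prox1 and 12 and 10 with GFP (log2 difference 1.48, adjusted p = 0.0551). Zfp935 had 15 and 33 against 5 and 5 (log2 difference 1.96, adjusted p = 0.0502), and Zfp934 had 27 and 30 against 13 and 8 (log2 difference 1.39, adjusted p = 0.0800). In all 3 both Prox1 libraries lay above both GFP libraries, beside 28.9% of all tested genes, and none passed. Of the 3′ 50-base words of Zfp935 100% occurred in another gene's transcripts, and of those of Zfp808 47.8%, so reads cannot be placed with certainty between them and their relatives.

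Further along stood Zfp367, a gene with 2 fingers and no KRAB pattern, with 523 and 371 against 361 and 381, which overlap (log2 difference 0.25, adjusted p = 0.504). Zfp369, which carries KRAB and SCAN patterns, had 104 and 56 against 48 and 36 (log2 difference 0.86, adjusted p = 0.135).

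The larger run, from 66670769 to 67827002, held 18 expressed Zfp genes, all with a KRAB pattern, and a median log2 difference of 0.56. The 3 tested coding genes of that span other than zinc finger genes had a median of 0.60. Whether the run differs from these neighbours was not tested. The run also holds Rsl1, a KRAB zinc finger gene known in mouse liver for repressing male-specific genes. Rsl1 had 25 and 20 against 27 and 34 and did not pass (log2 difference -0.42, adjusted p = 0.544). Beside Zfp759, the highest values were those of Zfp712 (34 and 21 against 14 and 4; log2 difference 1.68, adjusted p = 0.0848) and Zfp273 (42 and 43 against 7 and 23; log2 difference 1.65, adjusted p = 0.0541). Zfp459 had 33 and 27 against 11 and 10 (log2 difference 1.43, adjusted p = 0.0653), and Zfp953 had 33 and 16 against 8 and 8 (log2 difference 1.42, adjusted p = 0.108). None of these 4 passed. They were picked for their high values, and in each the Prox1 libraries lay above the GFP libraries, beside 28.9% of all tested genes.

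Zfp874a and Zfp874b are close relatives that lie side by side, and both encode 447 residues. Zfp874b had 34 and 43 against 18 and 18 (log2 difference 1.05, adjusted p = 0.110), while Zfp874a had 25 and 27 against 17 and 26, with overlap (log2 difference 0.29, adjusted p = 0.701). The difference between the 2 genes was not tested.

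Between Zfp87 and Zfp65, inside the run, stood 6 genes with higher counts and log2 differences from -0.46 to 0.34. Zfp729a had 85 and 57 against 104 and 89 (log2 difference -0.46, adjusted p = 0.340), and its relative Zfp729b had 53 and 39 against 66 and 28 (log2 difference 0.08). Zfp65 had 178 and 126 against 171 and 142 (log2 difference -0.06), and Zfp738 had 119 and 94 against 81 and 120 (log2 difference 0.10). Zfp87 had 114 and 114 against 81 and 99 (log2 difference 0.34), and Zfp748 had 90 and 107 against 94 and 64 (log2 difference 0.34). Of these only Zfp87 and Zfp729a had groups that did not overlap.

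The other genes of the run had lower counts. Zfp85 had 11 and 22 against 8 and 6 (log2 difference 1.07), Zfp58 had 25 and 18 against 12 and 7 (log2 difference 1.12), and neither passed. Zfp455 had 31 and 15 against 16 and 12, and Zfp458 had 22 and 24 against 13 and 19, with log2 differences of 0.61 and 0.52. Zfp595 had 9 and 14 against 6 and 28, where the GFP libraries enclosed both Prox1 values (log2 difference -0.22). Across 60 to 68 Mb the 16 genes with a mean under 50 all had a KRAB pattern, and their median log2 difference was 1.26. The 7 with a higher mean had 0.25. Among Zfp genes elsewhere with a mean under 50 the median was 0.19 over 95 genes, and 0.29 over the 67 of them with a KRAB pattern. The 6 genes below the minimum were Zfp708, Zfp429, Zfp493, Zfp457, Zfp640 and Zfp456, of which Zfp640 and Zfp456 were at 0 in every library.

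**Figure D4:**
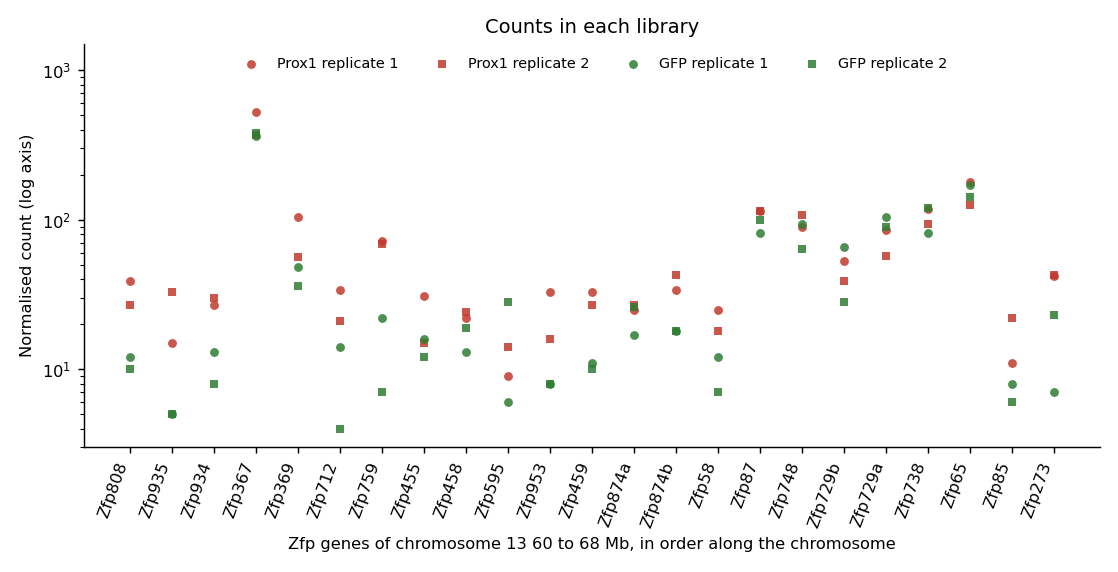
Normalised counts (log axis) of the 23 expressed Zfp genes of chromosome 13 60 to 68 Mb in each library, in their order along the chromosome. Red symbols (Prox1) lie above both green symbols (GFP) in 14 genes, 12 of them with a mean under 50, and in none of the genes from Zfp748 to Zfp65.

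Other genes of the stretch moved in both directions. Of its 15 tested protein-coding genes without a zinc finger or KRAB pattern, 3 rose (Habp4, Aaed1 and Uqcrb) and 2 fell (Ctla2a and Ctla2b), with a median log2 difference of 0.20. Uqcrb, a subunit of respiratory complex III inside the larger run, had 3230 and 2671 with Prox1 and 1822 and 1303 with GFP (log2 difference 0.93, adjusted p = 0.0182). Ctla2a had 153 and 133 against 702 and 505 (log2 difference -2.05, adjusted p = 0.000291). The KRAB zinc finger gene Gm5141 rose, with 20 and 28 against 7 and 5 (log2 difference 1.83, adjusted p = 0.0477). On the rest of chromosome 13, 353 protein-coding genes other than Zfp had a median of 0.36, with 83 that rose and 12 that fell. Over all tested genes 7.57% rose and 8.41% fell.

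Zfp genes formed 25 clusters with at least 3 expressed members, counting genes that start within 500 kb of the previous one, and 167 of the 300 lay in them. The median log2 difference was above 0 in 14 clusters and below 0 in 11, and 10 clusters held a called gene. Apart from chromosome 13, the cluster at 21008941 to 23599487 of chromosome 17 had 18 expressed genes, a median of 0.55 and 3 that rose (beside 7.57% of all tested genes): Zfp51 (38 and 31 against 12 and 11; a mean 3 times higher, adjusted p = 0.0463), Zfp229 and Zfp213. Zfp51 lost its call under cyclic loess (adjusted p = 0.0509). The other tested genes of the whole of chromosome 17 had a median of 0.02 over 581 genes. Inside the span of the cluster only 1 coding gene other than zinc finger genes was tested, with a log2 difference of 0.99. Whether the cluster differs from its neighbours was not tested. In the same cluster Zfp40 had 27 and 19 against 8 and 6 and did not pass (log2 difference 1.58, adjusted p = 0.0755).

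At the other end stood clusters of chromosomes 6 and 7. The cluster at 47819266 to 48623227 of chromosome 6 had a median of -0.49 over 9 genes. In 6 of these 9 both Prox1 libraries lay below both GFP libraries, beside 29.9% of all tested genes, but Zfp467 alone passed, and Zfp956 of the same cluster rose. The other coding genes of that span had a median of 0.26 over 5 genes. At 4915217 to 5053723 of chromosome 7, 6 genes had a median of -0.79, none of them called, and 4 neighbouring coding genes had a median of -0.69.

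**Figure D5:**
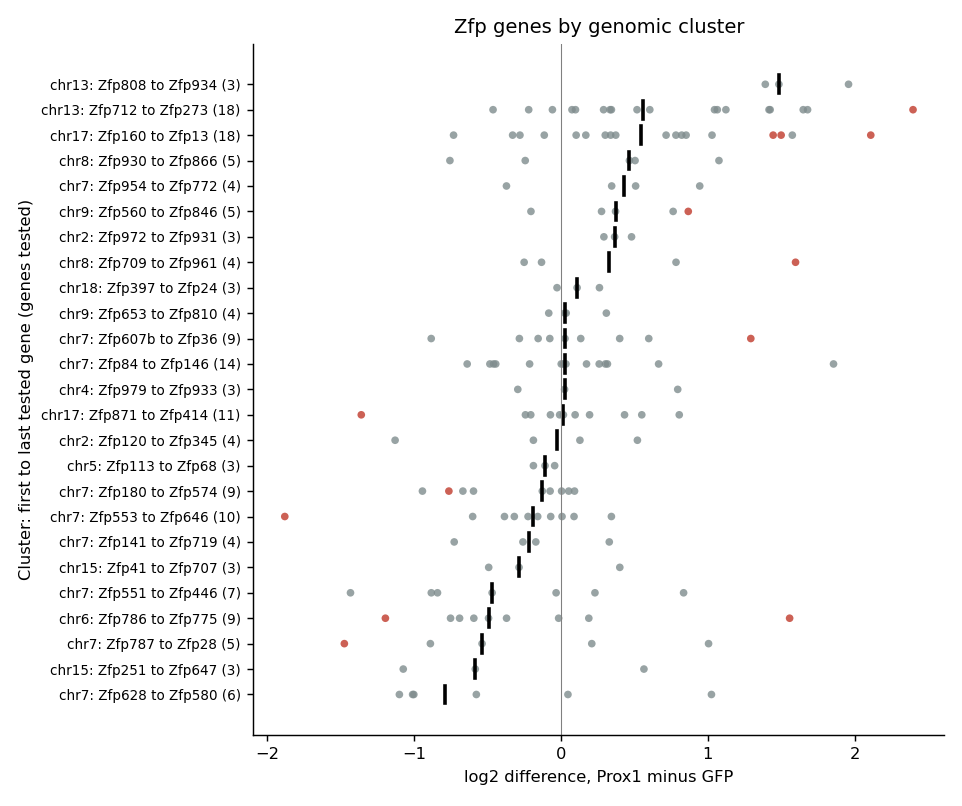
Log2 difference, Prox1 minus GFP, of each expressed Zfp gene (dots; red if past the threshold) in the 25 clusters, ordered by the cluster's median (black bar). The top 3 clusters are the 2 of chromosome 13 and that of chromosome 17, with medians of 1.48, 0.56 and 0.55, and the lowest is on chromosome 7 with -0.79.

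Of the genes with known roles in imprinting and retroelement silencing, none of the 4 tested passed, beside 16% of all tested genes. Zfp445, which guards imprinted methylation, had 412 and 267 against 288 and 221, and Zfp809, which silences retroviruses in embryonic cells, had 124 and 97 against 82 and 95. Zfp568, a repressor of a placental Igf2 transcript, had 129 and 223 against 151 and 186, and Zfp932, a retroelement silencer, had 114 and 97 against 141 and 138. The log2 differences of the 4 ran from -0.40 to 0.39. Zfp57, the imprint guardian, fell below the minimum with 2 and 2 with Prox1 and 10 and 13 with GFP, and was not tested.

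The list for RNA binding had 2 tested genes, that for pluripotency 3 and that for transcription, mitosis and repair 7. Of these Zfp830 alone passed, and it rose, beside 7.57% of all tested genes that rose and 8.41% that fell. Zfp281 and Zfp322a, which act in pluripotent cells, had 357 and 320 against 236 and 205 and 145 and 137 against 78 and 92 (adjusted p = 0.0811 and 0.0853). Zfp207, a spindle protein, and Zfp91, a ubiquitin ligase, had log2 differences of 0.04 each. Zfp42, a pluripotency marker, was at 0 in every library.

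KRAB proteins act through partners. Of 37 tested genes in a list of corepressors and heterochromatin proteins, 2 rose and 1 fell (8.11% called, beside 16% of all tested genes, a difference that was not tested). Ehmt1, a subunit of the H3K9 methyltransferase that also holds Ehmt2, had 1342 and 1758 against 957 and 461 (log2 difference 1.21, adjusted p = 0.0167). Pphln1, a subunit of the HUSH silencing complex, had 433 and 441 against 257 and 211 (log2 difference 0.91, adjusted p = 0.0164). Rbbp7, a histone-binding subunit of deacetylase complexes, had 1459 and 1367 against 2669 and 2166 (log2 difference -0.77, adjusted p = 0.0292).

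Trim28, the KRAB corepressor, had 1386 and 1634 with Prox1 and 2460 and 2275 with GFP, a log2 difference of -0.65 ± 0.21 (SE) that just missed the threshold (adjusted p = 0.0543). Its groups did not overlap. Setdb1 had 131 and 403 against 151 and 197, with the Prox1 libraries far apart (log2 difference 0.41, adjusted p = 0.522).

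The minimum of 10 left a thin edge. Just inside were Zfp473 (mean 10.25), Zfp955b (11.5), Zfp85 (11.75), Zfp825 (12.25) and Zfp969 (12.5), and just outside were Zfp965 (9), Zfp619 (7.75), Zfp78 (7.5), Zfp112 (7.25) and Zfp54 (7.25).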

How the data were processed

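The authors' deposited table gives log2(normalised count + 1) for each library, per the file headers, and 2 to that power minus 1 was a whole number in 100% of cells, within a relative deviation of 3.47e-09. DESeq and mm10 are named for the authors' work in the submitters' processing notes; the aligner, counter, strand setting and annotation are not given in the sources used. The table also holds the authors' deposited p-value, adjusted p and fold change (log2), and the GC fraction per the file headers.

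The values were already normalised and rounded, so no count model was run. Normalised counts were tested as log2(count + 1) with limma 3.58.1 (R 4.3.3) with a mean-variance trend, two-sided, for 13290 genes averaging at least 10, with Benjamini-Hochberg adjustment over all of them and a threshold of 0.05. The fit was checked on simulated data. Errors are SE of the log2 difference; counting error is covered by no interval here. Groups and replicate numbers came from the titles.

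Fingers (spacing C-2 to 4-C-12-H-3 to 5-H), KRAB and SCAN patterns were read from GENCODE M21 coding sequences in place of the RefSeq proteins planned. The KRAB pattern was widened after values had been seen, because it missed clear boxes; it still misses some. Shared 3′ sequence is the share of 50-base words in the last 300 transcript bases found in another gene. The promoter sequences are RefSeq's, 22 motif spellings and an 8-letter word scan having been looked at. Members, gene lists and stretches were chosen with earlier results of these data known.

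Genes were named by rule: the 8 genes that rose most and the 8 that fell most, if called, without overlap and with a group mean reaching 50, every expressed member of chromosome 13 60 to 68 Mb, the role lists, called corepressors with Trim28 and Setdb1, and the 5 genes on each side of the minimum; others named were chosen after their values were seen.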

Additional observations from a re-analysis of the deposited data

How the results depend on the processing

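With 1 library left out no gene of the table passed (lowest adjusted p 0.142), so these counts were 0 and do not bear on single calls: Zfp genes that rose (18 with all 4) and fell (11), those outside chromosome 13 60 to 68 Mb (28), inside it (1), in clusters (13), with a KRAB pattern (10), with a mean under 50 (8), the 16 genes named by size, the corepressors (3), the other C2H2 families (7) and all tested genes (2124). The median of the Zfp genes then ranged from 0.01 to 0.08 and that of the chromosome 13 stretch from 0.58 (without Prox1 replicate 1) to 0.88. With no minimum on the level (24187 genes tested) all these counts were also 0. Without the variance trend 4 Zfp genes fell, 15 outside the stretch, 5 inside it, 9 of the 16, 14 with a mean under 50, 0 corepressors and 1057 of all genes passed. With a mean of at least 50 the Zfp median was -0.06, the stretch had 0 called and a median of 0.25 over 7 genes, 7 clustered genes and 6 corepressors passed. The number called in the stretch was 3 with TMM scaling, 2 with cyclic loess and 4 with a pseudocount of 5; TMM gave a Zfp median of 0.04, loess 5 corepressors, and the pseudocount of 5 gave 13 genes with a mean under 50. The cause was not tested. All 29 called genes kept their sign and call under TMM and under the pseudocount of 5, loess lost Zfp51, a pseudocount of 0.5 lost Zfp654, and the fit without the variance trend lost 16.

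Nothing in the labels says that equal replicate numbers pair the libraries, and their deviations had a correlation of -0.05. With the replicate number as a block, 18 Zfp genes fell, 4 in the stretch, 17 with a KRAB pattern and 13 with a mean under 50 passed. Leaving out genes with over 20% of shared 3′ sequence, an alternative chosen after seeing the data, gave 17 that rose and 8 that fell.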
